A study of Mus musculus with 8 samples.

Results

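The bone morphogenetic protein (BMP) antagonist *Grem1* and 8 further genes of extracellular BMP signaling were followed in whole mouse kidneys with and without deletion of the salt-inducible kinases (SIKs). The set holds 9 of the 55401 genes listed for each kidney, 5 antagonists (*Grem1*, *Chrdl1*, *Nog*, *Sostdc1* and *Fst*) and 4 ligands (*Bmp2*, *Bmp4*, *Bmp6* and *Bmp7*). *Grem1* was chosen by the very difference between genotypes that is given here, so its values are a description and carry no test. The other 8 genes were selected as BMP antagonists and ligands of the kidney, with earlier results of these data known. Bulk RNA-Seq was performed on whole kidneys of 8 mice, 4 controls and 4 SIK mutants, with 1 library per mouse. Controls carried the floxed alleles SIK1f/f, SIK2f/f and SIK3f/f without Cre recombinase. SIK mutant mice carried the same floxed alleles and Six2-Cre, and the study's text gives 1 wild-type *Sik1* allele in surviving mutants where the labels give both as floxed. Both groups thus share the floxed alleles, and no agent was given according to the labels, which state neither age, sex, strain nor litter. Six2-Cre acts in nephron progenitors and in the epithelium that descends from them. Any cells outside this lineage in the same homogenate, among them stroma, vessels and blood cells, keep their SIK genes.

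BMPs are secreted dimers that bind type I and type II serine/threonine kinase receptors, which phosphorylate the receptor Smads and so raise transcription of target genes such as the *Id* genes and the inhibitory Smads. Gremlin, noggin, chordin-like 1, sclerostin domain-containing 1 (also called USAG-1 or ectodin) and follistatin are secreted proteins that bind ligands of this family and keep them from their receptors. In the kidney, gremlin acts on BMP signaling during outgrowth of the ureteric bud, BMP7 maintains nephron progenitors, and *Sostdc1* is expressed in distal tubules of the adult.

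*Grem1*, on the minus strand of chromosome 2 (113746164 to 113758646, mm10), was the member with the widest separation of the groups. The 250 bases in front of its RefSeq start, chr2:113758649-113758898 of GRCm38.p6, are shown because *Grem1* was the one member near the limit of detection in controls and read throughout in mutants, and because SIK substrates of the CRTC family are coactivators of CREB, whose binding site contains TGACG. The window lies upstream of the first exon, in the interval between *Grem1* and *Scg5*, and is printed 5′ to 3′ on the strand of the gene, with matches to GGGCGG (the GC box) and GGCGCC in capitals.

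Grem1 promoter: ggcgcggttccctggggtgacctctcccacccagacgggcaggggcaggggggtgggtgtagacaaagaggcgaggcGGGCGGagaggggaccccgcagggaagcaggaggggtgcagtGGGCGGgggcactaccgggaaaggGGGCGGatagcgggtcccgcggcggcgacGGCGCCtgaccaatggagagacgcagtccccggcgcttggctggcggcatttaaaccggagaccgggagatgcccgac

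Letters were searched on both strands. No TGACG was present in this window. Only 17.8% of 32851 RefSeq windows of the same length held at least 1 match, so most windows lack it. Sites farther from the start, such as enhancers, lie outside the window and were not searched. GGGCGG matched 3 times and GGCGCC 1 time, with no overlap between the matches, and 32.7% and 9.59% of all windows held these motifs. A match is a description of letters and not of a bound site. The *Bmp4* and *Bmp6* windows held 1 GGGCGG match each and no TGACG or GGCGCC. The table of promoters matched 3 of the 9 members, and *Chrdl1*, *Nog*, *Sostdc1*, *Fst*, *Bmp2* and *Bmp7* had no entry in it.

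Values per kidney are expected counts and CPM (each kidney's counts divided by its TMM-adjusted total), group values are mean ± SD of 4 kidneys, and log2 fold changes are mutant minus control with their SE. The deposited expected counts summed to between 10179643 and 10925093 per kidney, so that the smallest level taken as detectable, 3 counts, was 0.262 to 0.304 CPM. Of the targeted genes, *Sik3* was at 62.8 ± 3.78 CPM in controls and 39.4 ± 4.10 CPM in mutants, a log2 fold change of -0.67 (SE 0.0937). *Sik2* was at 9.12 ± 0.840 and 6.71 ± 2.06 CPM with overlapping groups, and *Sik1* was at 40.7 ± 2.83 and 50.5 ± 4.84 CPM, higher in each mutant kidney than in any control. With edgeR's quasi-likelihood test, 0 of 14326 genes passed an FDR of 0.05, or 0%, and 911 had an unadjusted p under 0.05. DESeq2 called 71 genes, 0.387% of those it gave an adjusted p. The groups did not overlap in CPM for 4.03% of tested genes, 1.65% higher and 2.39% lower in the mutants. Control 3 and control 4 lacked reads of 4 Y-linked genes (0 and 0.175 summed CPM), and the other 6 kidneys had 76.6 to 94.7. Each member that could be fitted is therefore also given for those 6 kidneys, 2 controls and 4 mutants, in which edgeR called 21 genes or 0.143%. As this is whole tissue, fewer cells of a type cannot be told apart from less RNA per cell.

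*Grem1* counts were 6, 0, 2 and 1 in controls 1 to 4. They were 80, 70, 144 and 34 in mutants 1 to 4. The lowest mutant thus had more than the highest control, and 3 of 4 controls lay under the detection floor. In CPM the controls were at 0.608, 0, 0.176 and 0.0874, and the mutants at 7.05, 6.23, 13.9 and 3.26. The mean was 0.218 ± 0.270 CPM in controls and 7.62 ± 4.51 CPM in mutants, a log2 fold change of 5.10 (SE 0.693). Leaving out control 1, which held 6 of the control reads, gave 6.22, and the 6 kidneys with Y-linked reads gave 4.62 (SE 0.907). *Grem1* has a single annotated transcript, and RSEM assigned its reads without ambiguity (posterior SD 0 in each kidney).

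**Figure D1:**
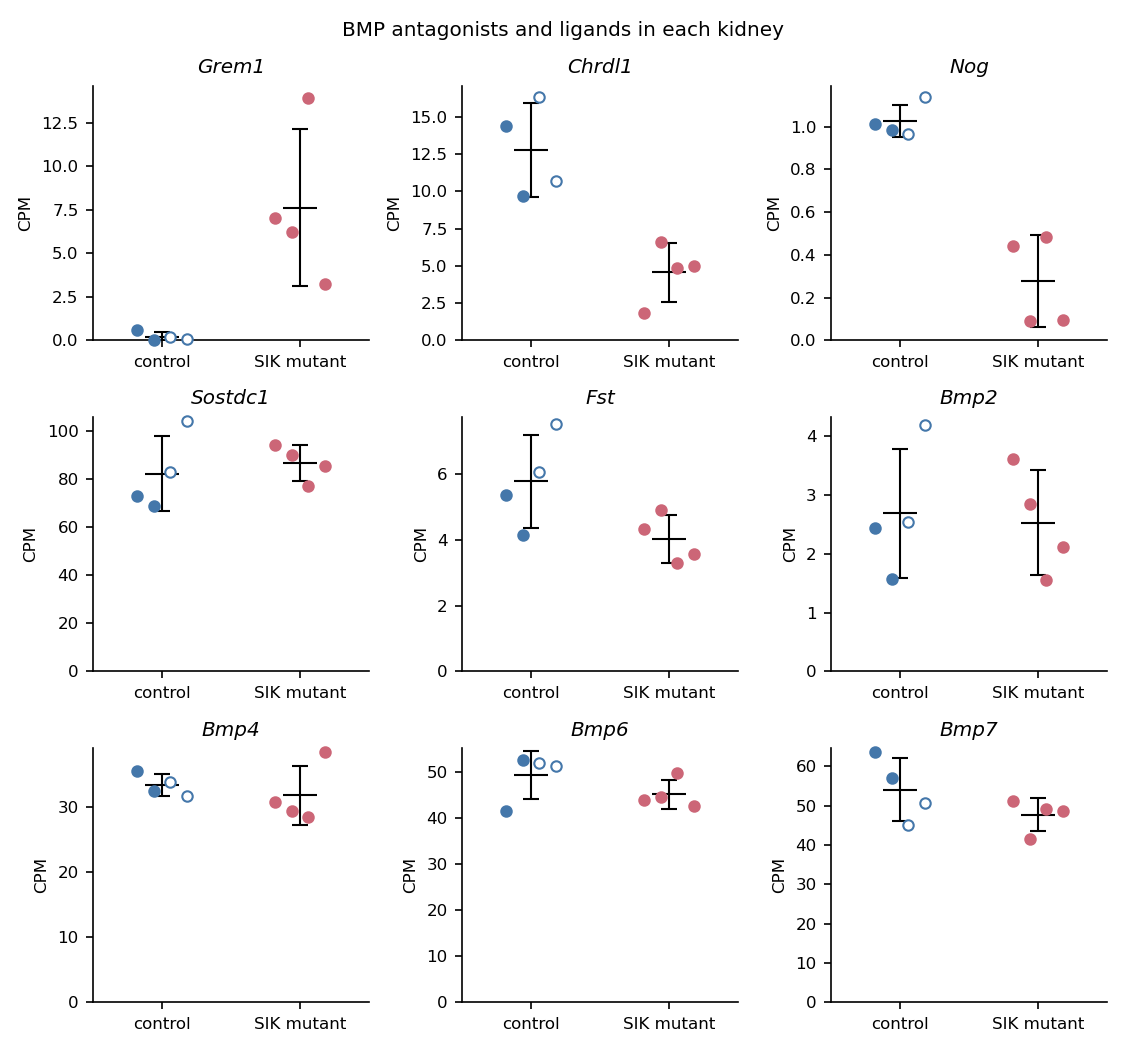
CPM of each of the 9 members in control (blue) and SIK mutant (red) kidneys, with 1 point per kidney, open points for the 2 controls without Y-linked reads, and mean ± SD in black (bars drawn no lower than 0). *Grem1* lies at 0.608 CPM or below in controls and at 3.26 CPM or above in mutants, *Chrdl1* and *Nog* lie lower in each mutant than in any control, and the other 6 members overlap.

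*Chrdl1*, which encodes the antagonist chordin-like 1 and lies on the X chromosome (143285674 to 143394262, minus strand), had lower values in the mutants. Its CPM was 14.4, 9.66, 16.3 and 10.7 in the controls. In the mutants it was 1.85, 6.59, 4.83 and 4.99. The highest mutant was below the lowest control, and mutant 1 was the lowest of all. The log2 fold change was -1.48 (SE 0.327), a mean of 12.8 ± 3.14 against 4.57 ± 1.98 CPM, and the edgeR FDR over all tested genes was 0.390. DESeq2 gave nearly the same difference, -1.48, with an FDR of 0.0056, so the call depended on the tool. In the 6 kidneys with Y-linked reads the difference was -1.39 (SE 0.381, edgeR FDR 0.280). On the TPM scale, which divides by an effective length that ran from 2879 to 3750 bases among these kidneys, mutant 2 at 2.64 TPM was above control 2 at 2.47 TPM, and the groups overlapped.

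*Nog* encodes noggin, which binds several BMPs with high affinity, and sits on chromosome 11 (89300638 to 89302332, minus strand). Its counts were 10, 10, 11 and 13 in controls. In mutants they were 5, 1, 5 and 1. Each mutant kidney was below each control, at 0.277 ± 0.214 against 1.02 ± 0.0761 CPM, and 2 of the mutant counts were under the detection floor. These counts were too low for the filter, so *Nog* was the 1 member of 9 without a test in the 8-kidney fit. With no filter, edgeR gave a log2 fold change of -1.84 (SE 0.528, FDR 0.564), and DESeq2 gave -1.88 with an FDR of 0.332. The difference did not pass the threshold in either.

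*Sostdc1*, on chromosome 12 (36314139 to 36318452, plus strand), was the most abundant member. Its CPM was 73.1, 69.0, 83.0 and 104.0 in controls and 94.2, 90.2, 77.0 and 85.4 in mutants. The groups overlapped over most of their range, and the 2 controls with Y-linked reads held the lowest values of the 8 kidneys. The difference was 0.08 on the log2 scale (SE 0.132, edgeR FDR 0.949, 95% interval -0.18 to 0.33). In the 6 kidneys it was 0.30 (SE 0.105, edgeR FDR 0.365). No difference was detected, and the interval leaves room for one of about that size.

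*Fst* (chromosome 13, 114452290 to 114458951, minus strand) encodes follistatin, which binds activins most tightly and some BMPs as well. Controls were at 5.37, 4.14, 6.06 and 7.51 CPM and mutants at 4.32, 4.90, 3.29 and 3.55 CPM. The value of control 2 was inside the mutant range, and the other 3 controls were above it. The log2 fold change of -0.52 (SE 0.221) had an edgeR FDR of 0.768, and it was -0.23 (SE 0.248) in the 6 kidneys, where the 2 highest controls are left out.

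**Figure D2:**
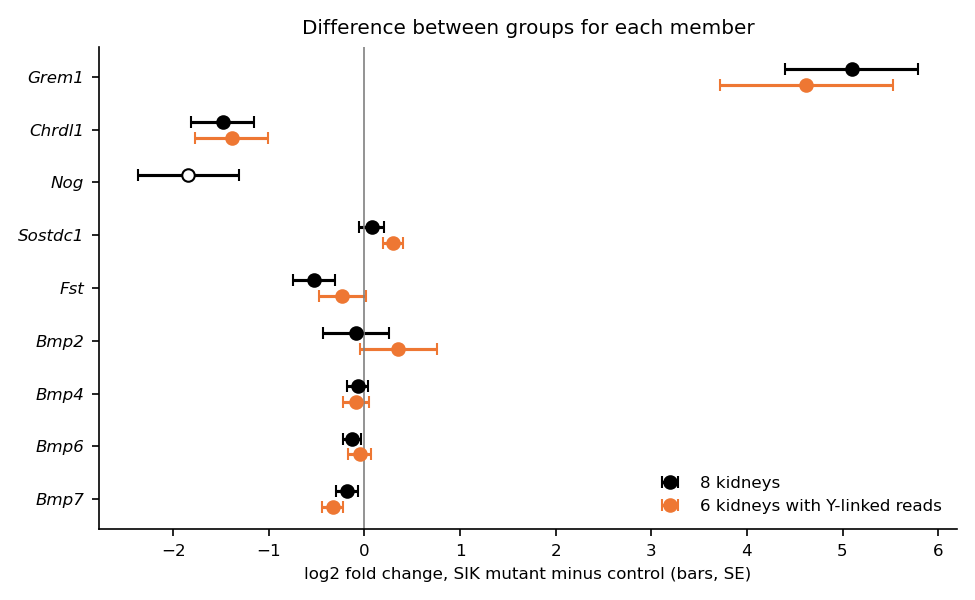
Log2 fold change (SIK mutant minus control) of each member, with bars of 1 SE, in all 8 kidneys (black) and in the 6 kidneys with Y-linked reads (orange). The open symbol for *Nog* is from the fit without a filter, and *Nog* was not fitted in the 6 kidneys. *Grem1* stands at 5.10 and 4.62, *Chrdl1* at -1.48 and -1.39, and the 4 ligands lie between -0.33 and 0.35.

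The ligand transcripts overlapped between the groups. *Bmp7* (chromosome 2, 172868012 to 172940321, minus strand), whose product is needed for nephron progenitors, was at 63.6, 57.2, 45.0 and 50.8 CPM in controls and 51.3, 41.7, 49.1 and 48.8 CPM in mutants. Its log2 fold change was -0.18 (SE 0.117, edgeR FDR 0.847), and -0.33 (SE 0.109, edgeR FDR 0.347) in the 6 kidneys, because the 2 controls with Y-linked reads were the highest of the 8. *Bmp6* (chromosome 13, 38345107 to 38500302, plus strand), a ligand known for its part in iron sensing in the liver, was at 41.6, 52.7, 52.1 and 51.3 CPM in controls and 43.95, 44.6, 49.8 and 42.6 CPM in mutants. Control 1 was lower than each other kidney, and the difference was -0.13 (SE 0.0969, edgeR FDR 0.881), and -0.05 (SE 0.122) in the 6 kidneys. The last 224 bases of the *Bmp6* locus overlap *Txndc5* on the opposite strand (107.1 ± 17.7 CPM in controls and 101.0 ± 3.20 in mutants), and whether the counting used strand is not given in the sources used here.

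*Bmp4* (chromosome 14, 46383520 to 46390669, minus strand), a ligand made by mesenchyme around the ureteric bud, gave opposite signs on different scales. Its CPM was 35.6, 32.5, 33.8 and 31.6 in controls and 30.7, 29.5, 28.4 and 38.5 in mutants. These values overlapped, with mutant 4 the highest and the other 3 mutants below each control, and the log2 fold change was -0.07 (SE 0.108, edgeR FDR 0.944), and -0.09 (SE 0.136) in the 6 kidneys. In TPM, controls were at 32.0, 26.5, 35.2 and 24.1 and mutants at 37.2, 37.8, 39.3 and 37.4, so that each mutant was above each control. Limma-trend on log2(TPM + 1) gave 0.37 (SE 0.120, FDR 0.587). The effective length that RSEM gave *Bmp4* was 1013 to 1436 bases in controls and 812 to 1021 bases in mutants, and the gene has 4 annotated transcripts. No other member had its groups separated in TPM and overlapping in CPM. A stretch of 1764 bases of the locus is also annotated as antisense *Gm15222*, at 3.88 ± 1.001 CPM in controls and 4.39 ± 0.949 in mutants, and 89 bases overlap *Gm15217*, at 34.4 ± 7.07 and 32.2 ± 5.68 CPM.

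*Bmp2* (chromosome 2, 133552159 to 133562885, plus strand), an osteogenic ligand, was low, with counts of 24, 16, 29 and 48 in controls and 41, 32, 16 and 22 in mutants. The ranges coincided almost entirely. The log2 fold change of -0.09 (SE 0.349, edgeR FDR 0.984, 95% interval -0.77 to 0.60) became 0.35 (SE 0.402) in the 6 kidneys, and it turned positive in 6 of 18 alternative analyses.

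Read against the background, none of the 7 tested members other than *Grem1* passed an FDR of 0.05 with edgeR, as none of all genes did, while DESeq2 called *Chrdl1*. Of these 7, *Chrdl1* had groups that did not overlap, where the share over all tested genes was 4.03%. The median log2 fold change of the 7 was -0.13, and that of all tested genes was 0.00. Of the 7 estimates, 6 were below 0, where 7277 of all 14326 tested genes were.

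Levels can be compared between genes only per length, and TPM was used for this. In controls the order was *Sostdc1* (53.9 ± 14.5 TPM), *Bmp4* (29.5 ± 5.06), *Bmp7* (15.8 ± 1.01), *Bmp6* (14.9 ± 2.61), *Chrdl1* (3.71 ± 1.23), *Fst* (3.14 ± 1.51), *Bmp2* (0.830 ± 0.394), *Nog* (0.708 ± 0.0971) and *Grem1* (0.0525 ± 0.0619). Neighbors in this order that did not differ beyond their spread were *Bmp7* and *Bmp6*, with *Bmp7* higher in 2 of 4 controls, and *Chrdl1* and *Fst*, and *Bmp2* and *Nog*, each in the stated order in 3 of 4 controls. Counted per kilobase of the longest transcript instead, *Bmp4* and *Bmp7* were also close in controls, at 16.2 ± 0.825 and 14.8 ± 2.19 CPM per kilobase. In mutants *Grem1* was the sixth of the 9 at 2.15 ± 1.31 TPM, above *Chrdl1* (1.498 ± 0.862), *Bmp2* (0.833 ± 0.314) and *Nog* (0.205 ± 0.162) and below *Fst* (2.56 ± 0.867). The places of *Grem1*, *Chrdl1* and *Fst* were not distinct, since *Chrdl1* was above *Grem1* in 2 of 4 mutants and *Grem1* above *Fst* in 1 of 4, whereas *Fst* was above *Chrdl1* in each mutant.

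Summed over the 5 antagonists, the level was 61.5 ± 16.2 TPM in controls and 66.9 ± 7.78 TPM in mutants, and *Sostdc1* made up 86.4% to 89.0% of it in controls and 87.7% to 93.1% in mutants. Without *Sostdc1*, the sum of the other 4 was 6.74, 5.22, 9.14 and 9.30 TPM in controls. It was 5.79, 8.14, 7.71 and 3.99 TPM in mutants. The sums overlapped, with the highest and second highest in controls and the lowest in mutant 4. *Grem1* made up 2.08%, 0%, 0.547% and 0.215% of this sum in controls. In mutants its share was 34.4%, 22.4%, 51.4% and 20.55%, which follows from the values that chose the gene. *Chrdl1* made up 33.8% to 58.4% in controls and 9.50% to 33.8% in mutants. The ratio of summed antagonists to summed ligands was 0.814 to 1.40 in controls and 0.866 to 1.09 in mutants, a range within that of the controls. The ligand sum holds *Bmp4* as its largest term, which was higher in each mutant in TPM but not in CPM. The ratio therefore depends on the scale. These sums weigh transcripts and say nothing of binding affinity.

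**Figure D3:**
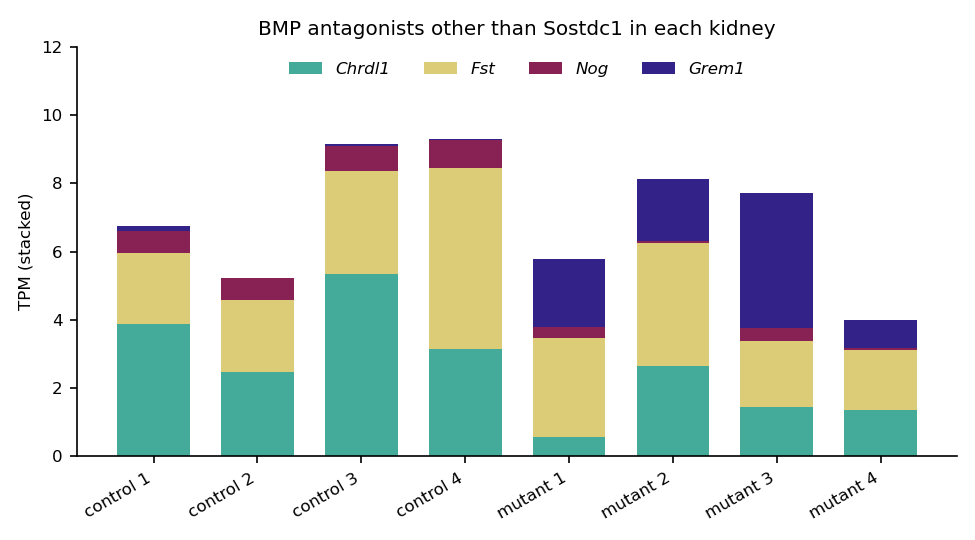
Stacked TPM of the 4 antagonists other than *Sostdc1* in each kidney. The bars reach 5.22 to 9.30 TPM in controls and 3.99 to 8.14 TPM in mutants, and the dark *Grem1* segment is at most 0.14 TPM in controls and 0.82 to 3.96 TPM in mutants.

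Markers of stromal cells, which can express BMP antagonists, varied among kidneys within a genotype. Summed CPM of 7 interstitial fibroblast markers was 201.4 to 459.7 in controls and 244.9 to 692.5 in mutants, with the highest sum in mutant 1. Each of the 7 genes was estimated higher in mutants and none was called. Their log2 fold changes ran from 0.02 for *Pdgfra* and 0.04 for *Pdgfrb* to 0.91 for *Lum*. Smooth muscle markers overlapped likewise (29.0 to 72.6 and 36.4 to 126.4). Adipocyte markers summed to 0, 2.76, 135.3 and 29.7 CPM in controls 1 to 4 and to 95.0 to 156.3 CPM in mutants, with *Lep* at 0 in 3 controls. Controls 1, 2 and 4 were thus below each mutant and control 3 was inside the mutant range. Urothelium (5.06 to 45.8 and 18.1 to 38.6) and inner medulla markers (48.3 to 163.1 and 72.8 to 219.9) were variable as well, with overlapping groups. Proximal tubule markers, which identify the labelled tissue, were the highest list in each kidney at 7290 to 10620 CPM. None of the 15 marker lists separated the groups by its summed level. The intercalated cell sum overlapped through control 2 alone, at 170.4 to 245.3 CPM in controls and 161.7 to 180.6 CPM in mutants. Each of its 5 genes was estimated lower in mutants and 0 were called. Groups were separated for 2 of the 5, each lower in mutants, where the share over all tested genes was 2.39% in that direction. This list is described because of its values, as 1 of the 15, so the count is a description and carries no test. The 3 distal convoluted tubule genes were also each estimated lower, with sums of 658.8 to 1087 and 510.6 to 792.2 CPM. The part of tissue composition in the *Grem1*, *Chrdl1* and *Nog* values was not tested.

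**Figure D4:**
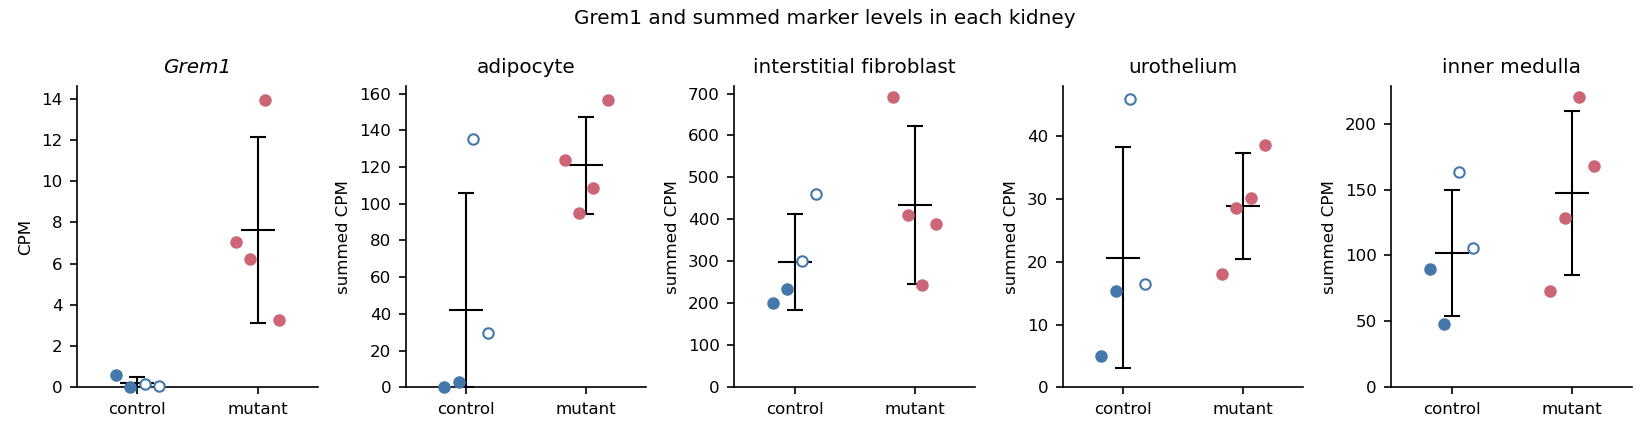
CPM of *Grem1* and summed CPM of 4 marker lists in each kidney, with open points for the 2 controls without Y-linked reads and mean ± SD in black (bars drawn no lower than 0). *Grem1* separates the groups, and the adipocyte, interstitial fibroblast, urothelium and inner medulla sums overlap, the adipocyte sum through control 3 alone, at 135.3 CPM. The part of composition in the *Grem1* values was not tested.

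The question whether the remaining BMP pathway differed between genotypes was addressed with 67 further genes in 7 lists. Of these, 44 passed the filter, 0 passed an edgeR FDR of 0.05, 3 had an unadjusted p under 0.05, and DESeq2 called 0. Groups did not overlap for 2 of the 44, both lower in mutants, where the share over all genes was 4.03%. Their median log2 fold change was 0.01, and that of the 45 genes fitted in the 6 kidneys was 0.12.

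Among the BMP target genes, 0 of 7 tested genes passed the threshold, 6 of 7 estimates were below 0, and the median was -0.26. In the 6 kidneys with Y-linked reads the median over the 8 genes fitted was -0.015. *Id1* and *Id3*, direct Smad targets that encode inhibitors of helix-loop-helix factors, had estimates of -0.67 (SE 0.407) and -0.64 (SE 0.274). *Id1* was at 7.19, 15.2, 38.8 and 19.1 CPM in controls and 11.2 to 15.4 CPM in mutants, so that control 3 stood highest and control 1 lowest. *Id3* was at 21.1, 32.9, 57.6 and 44.9 CPM in controls and 18.8 to 29.6 CPM in mutants. Control 3 and control 4 were the highest for both, and in the 6 kidneys *Id1* was 0.18 and *Id3* -0.09. *Id2* was the most abundant gene of the list, at 218.8 ± 16.5 and 198.6 ± 38.6 CPM. *Smad7*, which encodes an inhibitory Smad, was 1 of the 2 pathway genes with separated groups, at 15.8 to 17.7 CPM in controls and 13.1 to 15.1 CPM in mutants (log2 fold change -0.26, edgeR FDR 0.716). It was named after its values were seen.

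Among the other extracellular antagonists and modulators, 8 of 13 genes were tested and 0 passed. *Fstl1*, a follistatin-like glycoprotein of mesenchymal cells, was at 26.9 ± 6.57 and 41.2 ± 17.0 CPM (0.61, SE 0.290). *Twsg1*, a cofactor of chordin, was at 98.5 ± 27.9 and 89.2 ± 4.29 CPM, and *Kcp*, a chordin-family enhancer of BMP7 signaling in the kidney, at 14.8 ± 1.26 and 14.4 ± 1.81 CPM. *Dand5*, a nodal and BMP antagonist, was the other pathway gene with separated groups, at 4.54 to 6.18 CPM in controls and 3.74 to 4.51 CPM in mutants (log2 fold change -0.38, edgeR FDR 0.768).

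Of the other BMP ligands, 3 of 10 were tested and 0 passed. *Bmp3* was at 2.52 ± 1.40 and 4.10 ± 1.41 CPM (0.68, SE 0.388), *Gdf10* at 4.41 ± 2.22 and 4.34 ± 1.86 CPM, and *Bmp5* at 0.807 ± 0.287 and 0.959 ± 0.352 CPM. Of the activin-type ligands, 3 of 7 were tested and 0 passed, with *Inha*, which encodes the inhibin alpha subunit, at 1.61 ± 0.737 and 1.08 ± 0.284 CPM and *Gdf11* at 5.46 ± 3.10 and 7.81 ± 1.68 CPM. Each of these 5 genes had groups that overlapped.

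Of the 15 receptors and co-receptors, 14 were tested and 0 passed, with estimates from -0.34 to 0.23. *Acvr1b*, a type I receptor of activins, was at 41.1 ± 3.93 and 39.7 ± 3.57 CPM, *Acvr2b* at 3.48 ± 0.927 and 2.85 ± 0.985 CPM, and the endothelial receptors *Acvrl1* and *Eng* at 15.7 ± 5.31 and 12.4 ± 3.33 CPM and at 151.4 ± 41.2 and 124.8 ± 23.1 CPM. All 5 Smads and Smurfs were tested and 0 passed. *Smad4*, the shared partner of receptor Smads, was at 27.4 ± 1.56 and 31.2 ± 4.02 CPM (0.19, SE 0.105), *Smad1* at 9.20 ± 1.37 and 8.91 ± 1.46 CPM, and *Smurf2*, a ubiquitin ligase of the pathway, at 50.7 ± 3.53 and 51.7 ± 3.10 CPM. Of the 6 processing proteases, 4 were tested and 0 passed. *Furin*, which cleaves BMP precursors, was at 173.1 ± 37.2 and 194.7 ± 17.3 CPM, *Pcsk6*, a related convertase, at 38.6 ± 11.5 and 38.9 ± 10.8 CPM, and *Bmp1*, the protease that cuts chordin, at 15.5 ± 7.37 and 16.3 ± 5.88 CPM.

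**Figure D5:**
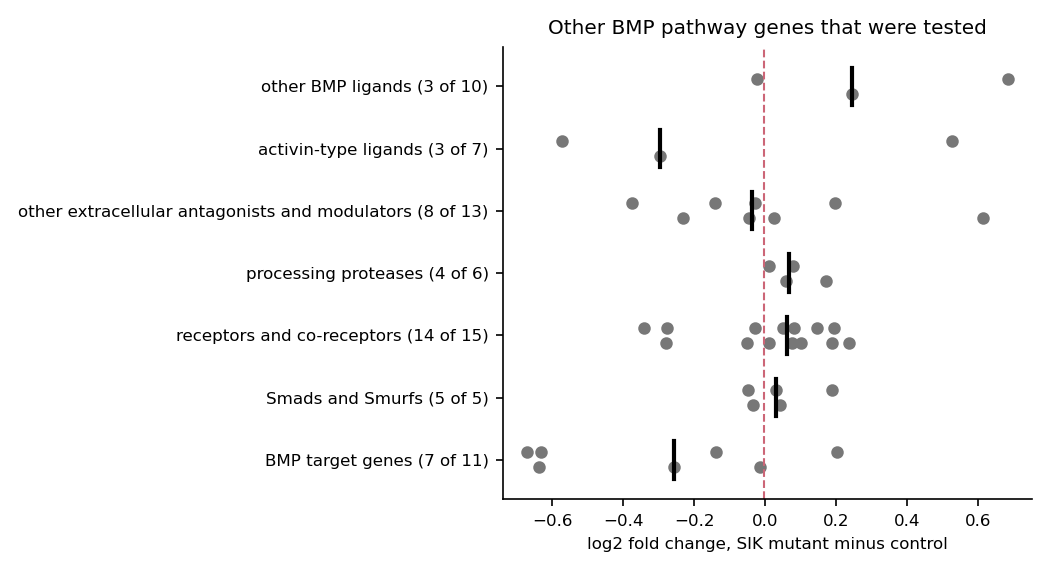
Log2 fold change (SIK mutant minus control) of the 44 tested BMP pathway genes outside the set, by list, with 1 point per gene, the list's median as a black bar and the median of all 14326 tested genes as a dashed line. In the labels, the number tested is given of the number listed. The points lie between -0.67 and 0.68, with the medians of the lists between -0.30 and 0.24.

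Genes within 500 kilobases of the *Grem1* locus were examined since regulatory DNA of *Grem1* lies in the neighboring formin gene *Fmn1*. Of 20 annotated neighbors, 6 were tested. Groups did not overlap for 2 of these, *Fmn1* and *Gm21596*, where the share over all tested genes was 4.03%. *Fmn1* (chromosome 2, 113327736 to 113716767) was at 24.1 ± 1.61 CPM in controls and 31.1 ± 4.96 CPM in mutants, with groups that did not overlap (log2 fold change 0.37, SE 0.121, edgeR FDR 0.700). *Scg5*, on the other side, overlapped between groups at 10.4 ± 2.41 and 14.2 ± 6.503 CPM. *Zfp770* had an estimate close to that of *Fmn1* (0.38, SE 0.216), with overlapping groups. The predicted gene *Gm21596* was at 5.22 ± 2.04 and 1.12 ± 0.851 CPM, lower in each mutant than in any control. Its log2 fold change of -2.21 (edgeR FDR 0.351) was opposite to that of *Grem1*. These neighbors were named after their values were seen, and whether *Fmn1* and *Grem1* share regulation was not tested. Next to *Chrdl1*, 3 of 10 genes were tested, and *Capn6* had separated groups at 5.41 ± 0.843 and 3.01 ± 0.576 CPM (edgeR FDR 0.443). No neighbor of *Nog*, *Sostdc1*, *Fst*, *Bmp4*, *Bmp6* or *Bmp7* had groups that did not overlap, and no neighbor of *Bmp2* was tested.

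The 5 tested genes with profiles closest to *Grem1* over the 8 kidneys were found by the root mean square difference of log2 CPM after each gene's mean was subtracted. They were *AC134576.3* (0.946), *Gulo* (0.963), *Aldh1a1* (0.976), *Glns-ps1* (1.04) and *Ttr* (1.05). *AC134576.3* and *Glns-ps1* are processed pseudogenes that may share reads with near-identical copies. *Gulo*, the last enzyme of vitamin C synthesis, was at 0.253 ± 0.107 and 2.33 ± 0.960 CPM, *Aldh1a1*, a retinal dehydrogenase, at 12.6 ± 5.13 and 45.1 ± 5.59 CPM, and *Ttr*, the carrier of thyroxine and retinol-binding protein, at 74.4 ± 53.4 and 435.7 ± 58.0 CPM. These 5 are higher in each mutant than in any control, as the likeness to *Grem1* requires. The 3 genes closest to *Sostdc1* were *Bex3* (0.0620), *Rpia* (0.0636) and *Srfbp1* (0.0675), with overlapping groups like *Sostdc1* itself.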

How the data were processed

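RNA-Seq of whole kidneys from 4 control and 4 SIK mutant mice was sequenced on the BGISEQ500 platform, with groups and replicate numbers taken from titles and genotypes. Per the submitters' processing notes, STAR 2.7.2b, RSEM 1.3.0, FastQC and DESeq2 were used with build mm10. The authors deposited expected counts (RSEM's estimates, not normalized), TPM (scaled to length and library), and other RSEM values, the effective lengths and posterior SDs, as 1 table per kidney. Of 55401 gene IDs, 55141 matched GENCODE M21. Counts were rounded and tested with edgeR 4.0.16 (R 4.3.3; quasi-likelihood F test, TMM, filterByExpr) and Benjamini-Hochberg adjustment over 14326 genes, with DESeq2 1.42.0 and limma 3.58.1 as alternatives. The SE is the absolute log2 fold change divided by the square root of F. Promoter sequences are from RefSeq (GRCm38.p6).

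The members and gene lists were chosen with earlier results of these data known. Named were all members, the targeted genes, from each pathway list any called gene, the 2 with the highest mean TPM and the 2 with the largest log2 fold change, and the genes nearest in profile to *Grem1* (5) and *Sostdc1* (3). Of the pathway genes, 1 is left out and not reported here. The edgeR script was tested on simulated counts. The 12 replicate pairs differed beyond sampling noise. Nothing says that same-numbered mice were littermates. P-values measure the spread between these mice, and floors cover counting error only.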

Additional observations from a re-analysis of the deposited data

Results flagged for a closer look

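*Bmp6* in control 1 stood apart from the other controls, at 41.6 CPM where controls 2 to 4 were at 51.3 to 52.7 CPM, a gap of 0.876 of the range of the group. Chance flags about 1 in 20 groups, and 1 of 18 groups of members was flagged.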

How the results depend on the processing

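The number of genes past an FDR of 0.05 was 0 in the 8-kidney edgeR fit, with the replicate block, with the offset of effective lengths, with RLE size factors and among genes averaging 50 counts or more. It was 71 with DESeq2, 9 with no filter, 1 with edgeR's legacy mode off, 4 and 5 with limma-trend on log2(TPM + 1) and log2(TPM + 0.1), 21 in the 6 kidneys with Y-linked reads, 17 with a Y-linked covariate, and 0 to 1 when 1 kidney was left out (1 without control 2, control 3 or mutant 1). The 67 pathway genes gave 0 calls in each of these. *Grem1* was at 1.49 and 3.77 on the log2(TPM + 1) and log2(TPM + 0.1) scales, 6.22 without control 1, and 4.54 to 5.35 in the other alternatives. Its sign could not change among these, because *Grem1* was chosen by this difference and its groups are separated. The filter on 50 counts dropped *Grem1*, *Bmp2* and *Nog*. *Chrdl1* was negative in 19 of 19, from -1.72 to -0.94, with FDRs from 0.0056 (DESeq2) to 0.913 (replicate block). *Bmp2* turned to 0.01 and 0.034 with limma-trend, 0.35 in the 6 kidneys, 0.34 with the covariate, 0.21 without control 4 and 0.08 without mutant 3 (-0.31 to 0.21 when 1 kidney was left out). *Bmp4* turned to 0.25 with the offset and 0.37 and 0.38 with limma-trend, and *Sostdc1* was at 0.00 without control 2 (-0.0004). *Fst*, *Bmp6* and *Bmp7* were negative in 19 of 19 alternatives each and *Nog* in 4 of 4, and the cause of these shifts was not tested. Apart from DESeq2, the *Nog* alternatives were the fits without mutant 1, 2 or 3. *Nog* passed the filter in those fits through its higher control counts alone, so its negative sign in them was fixed in advance. Deviations of same-numbered kidneys from their group means correlated at -0.175, 0.0479, 0.0557 and -0.318, so the numbers were not taken to pair the mice. With 4 kidneys a group and 1 to 13 counts of *Nog* and 0 to 6 control counts of *Grem1*, counting limits both, and the sizes of their differences are uncertain.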
